A study of Mus musculus with 8 samples.

Results

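The Hedgehog pathway was followed through 9 of its genes: Hhip, Ptch1, Smo, Sufu, Gli1, Gli2, Gli3, Boc and Gas1. They were taken by gene symbol from 24279 genes in the deposited tables, and all 9 were found there. The set was selected on the RPKM values and folds of Hhip in these tables, so the values of the 9 genes are a description and no test of them is used as support. RNA was sequenced from mouse embryonic stem cells (cultured pluripotent cells) on day 6 of culture without LIF, a cytokine used to hold them undifferentiated. There were 4 groups of 2 libraries. The noDox group is labelled AGO1-4-/-, that is, without any of the Argonautes, which bind microRNAs and with them silence transcripts. In the labels DOX has AGO2 alone, induced with doxycycline, NLS has NLS-AGO2 alone, and E14 is wild type. The labels describe every group as cells with inducible HA-Flag-AGO2, E14 and noDox included, at passages 8 to 15, and give daily 2.5 µg/ml doxycycline for all 4 groups. They do not say whether a line is 1 clone or whether the libraries of a group come from separate cultures.

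Hedgehog ligands act through an inhibitory relay. Without ligand, the receptor Patched (Ptch1) holds the membrane protein Smoothened (Smo) inactive, and the GLI transcription factors are kept back by Sufu and partly cut into repressors in the primary cilium. Ligand binding to Patched, helped by the co-receptors Boc and Gas1, frees Smoothened, and full-length GLI proteins then switch on target genes. Hhip, Ptch1 and Gli1 are themselves well-known targets in mouse tissues, and both Hhip and Ptch1 bind ligand and restrain the pathway.

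The tables hold 1 pooled RPKM value per group (reads scaled by transcript length and by library size), so values of single libraries cannot be given. Every standard error (SE) below is the one that the deposited test statistic implies for the log2 fold, and the depth of the libraries is unknown. Deposited tables exist for DOX and for E14, each set against noDox, but all 24279 lines of the one equal those of the other, so the group they hold is called DOX/E14. Ago2 was at 26.1 RPKM in noDox, 32.6 for DOX/E14 and 35.7 in NLS, and was not called in either table at q below 0.05 in the authors' deposited table. Whether the deletion removes the measured part of the Ago2 transcript is not given in the sources used here, so this Ago2 level checks no label. Ago1 had 0.0159 RPKM in noDox, 16.7 for DOX/E14 and 0.861 in NLS, a DOX/E14 level that goes against the DOX label, although this difference had q = 0.233 in the authors' deposited table (SE of the log2 fold 2.32) and the NLS one was not tested. Ago3 was at 7.56 RPKM in noDox, and in the authors' deposited table it was called lower for DOX/E14 (log2 fold −1.33, SE 0.29) and higher for NLS (log2 fold 0.90, SE 0.32), where the same limit on the deleted part holds. Ago4 was under 1 RPKM in every group. Every direction below that involves DOX/E14 rests on this unsettled name. Of 7 markers of embryonic stem cells all had reads in every group, with sums of 1715 RPKM in noDox, 1052 for DOX/E14 and 1515 in NLS, and 1 rose and 4 fell in DOX/E14. As scaled in the NLS table, the noDox sum was 1759 RPKM. There 0 of 6 tested markers were called, and the deposited test of Nanog had failed. The summed level of 5 neural markers was 3.69 RPKM (noDox), 27.3 (DOX/E14) and 5.76 (NLS). Over 5 mesoderm markers the sums were 3.22, 9.28 and 4.61 RPKM, with Mesp1 listed at 0 in noDox and DOX/E14. The gene T alone made up 5.10 RPKM of the DOX/E14 sum and was not called. For 5 mesenchyme markers the sums were 2.59, 13.6 and 4.44 RPKM, with Col1a2 listed at 0 in noDox. Col1a1 alone made up 7.79 RPKM of the DOX/E14 sum and was not called. Over 6 extraembryonic endoderm markers the sums were 2.66, 5.10 and 3.34 RPKM, with Afp listed at 0 in every group and Sox7 in noDox. For DOX/E14, 3 of 3 tested neural markers rose at q below 0.05 in the authors' deposited table. There 1 of 3 mesoderm, 1 of 3 mesenchyme and 1 of 2 endoderm markers rose, and 1 mesoderm marker fell. Over all tested genes 27.2% rose and 28.3% fell for DOX/E14, and 8.36% were called for NLS. For NLS 0 of 7 tested markers of these other types were called, and 2 of them, Nes and Eomes, had an unadjusted p under 0.05 from Cuffdiff. The part of these other cell types in the results below was not tested.

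Hhip encodes a membrane-anchored protein that binds Hedgehog ligands and keeps them from Patched. The gene lies on chromosome 8, from 79965850 to 80058060 (RefSeq, GRCm38.p6, minus strand). Hhip RNA stood at 46.8 RPKM in noDox and at 0.332 RPKM in DOX/E14 in the first table, and at 48.0 RPKM in noDox and 29.0 RPKM in NLS in the NLS table. It was thus high in noDox, somewhat lower in NLS and near the bottom of the range in DOX/E14. The DOX/E14 level was 141 times lower than noDox (log2 fold −7.14, SE 0.42), a size that rests on 0.332 RPKM at unknown depth and becomes a log2 fold of −5.16 with a pseudocount of 1 RPKM. The NLS level was 1.65 times lower (log2 fold −0.73, SE 0.30). Among 12192 tested genes with a finite fold, Hhip had the 15th lowest DOX/E14 fold. For NLS it had the 1258th lowest of 12755. Fewer cells of a type and less RNA per cell cannot be told apart in bulk samples.

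**Figure D1:**
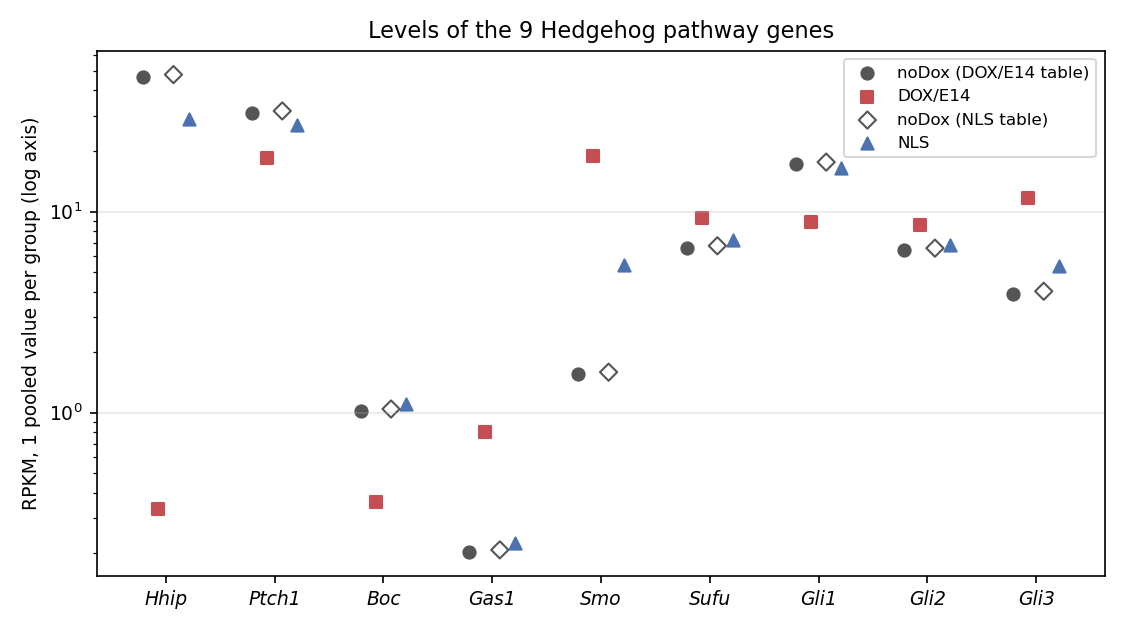
RPKM of the 9 Hedgehog pathway genes, 1 pooled value per group on a log axis, with noDox as scaled in each of both tables. Hhip runs from 46.8 in noDox to 0.332 in DOX/E14, whereas Smo runs from 1.55 to 18.9.

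The start region of Hhip is printed because this gene differed most among the 9, and that of Smo because it differed most in the other direction. Each run reaches from 250 bases before to 50 bases after 1 annotated start of the gene (GRCm38.p6), 5′ to 3′ on the gene's strand, with CG dinucleotides in capitals. That start need not be the outer end of the RefSeq gene. For Hhip it is 80058008, inside the gene end of 80058060 given above. The Hhip run is chr8:80057959-80058258 on the minus strand and the Smo run is chr6:29735247-29735546 on the plus strand.
Hhip: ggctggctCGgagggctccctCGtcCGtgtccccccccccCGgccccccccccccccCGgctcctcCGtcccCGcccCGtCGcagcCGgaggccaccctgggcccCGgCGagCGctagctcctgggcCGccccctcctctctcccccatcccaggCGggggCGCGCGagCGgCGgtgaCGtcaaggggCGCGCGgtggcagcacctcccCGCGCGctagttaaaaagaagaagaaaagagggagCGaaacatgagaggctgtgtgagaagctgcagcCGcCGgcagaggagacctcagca
Smo: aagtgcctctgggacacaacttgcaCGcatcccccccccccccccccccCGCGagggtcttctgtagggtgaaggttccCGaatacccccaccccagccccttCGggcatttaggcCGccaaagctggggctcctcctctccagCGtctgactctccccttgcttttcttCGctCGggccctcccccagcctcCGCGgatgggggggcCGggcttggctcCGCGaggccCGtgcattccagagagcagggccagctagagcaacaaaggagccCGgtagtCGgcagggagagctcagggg
The Hhip run held 30 CG dinucleotides and 73.7% G and C, and the Smo run 17 and 67.7%. The median over 32851 start regions of this length was 7 CG dinucleotides and 52.7%. The GLI binding motif GACCACCCA, searched on both strands, was in none of the 7 members with an entry (Gas1, Gli2, Gli3, Hhip, Ptch1, Smo and Sufu) and in 0.253% of all start regions. Its inner stretch ACCACCC, which is part of the longer motif, was found in 1 of the 7, Gli2, and in 4.61% of all start regions. These matches describe letters in a short window only, which for some genes is not at the outer end of the RefSeq gene. The Ptch1 window, 63565686 to 63565985, lies wholly inside its gene, which ends at 63573460. That of Gli2 ends at 119053869, before the gene end of 119054405.

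Ptch1, the ligand receptor (chromosome 13, 63508328 to 63573460, minus strand), was at 30.9 RPKM in noDox and 18.5 RPKM in DOX/E14, and at 31.6 in noDox and 26.9 RPKM in NLS. Its log2 folds were −0.74 (SE 0.26) in DOX/E14 and −0.24 (SE 0.30) in NLS. The Ptch1 level in DOX/E14 was 60.0% of that in noDox, while that of Hhip was 0.709%. The ratio of Hhip to Ptch1 in RPKM was 1.52 in noDox, 0.0179 for DOX/E14 and 1.08 for NLS. The ligand-binding inhibitor thus stood above the receptor in noDox and far under it in DOX/E14, while in NLS the gap between them was smaller than the errors of their folds.

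The co-receptors Boc and Gas1 were low in every group. Boc, an immunoglobulin-family protein that presents ligand to Patched (chromosome 16, 44485045 to 44558870), had 1.02 RPKM in noDox, 0.361 for DOX/E14 and 1.11 for NLS. Gas1, a membrane-anchored protein with the same role (chromosome 13, 60174405 to 60177535), was at 0.204, 0.801 and 0.225 RPKM. The authors did not test Gas1 in either table or Boc in the DOX/E14 table, so these differences have no error. The log2 fold of Boc in NLS was 0.09 (SE 0.64).

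Smo encodes the signal transducer that Patched holds back (chromosome 6, 29735497 to 29761366, plus strand). It stood at 1.55 RPKM in noDox and 18.9 RPKM in DOX/E14, and at 1.59 in noDox and 5.41 RPKM in NLS. The level was lowest in noDox, intermediate in NLS and highest in DOX/E14. Smo was 12.2 times higher in DOX/E14 (log2 fold 3.60, SE 0.36, or 2.96 with a pseudocount of 1 RPKM) and 3.40 times higher in NLS (log2 fold 1.77, SE 0.50). Its ratio to Ptch1 in RPKM was 0.0503 in noDox, 1.02 for DOX/E14 and 0.202 for NLS. Receptor and transducer RNA were thus at about the same level per length in DOX/E14, with Ptch1 well above Smo in the other groups.

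Sufu, which binds GLI proteins and holds them in the cytoplasm (chromosome 19, 46396896 to 46488804), was at 6.59 RPKM in noDox and 9.30 RPKM in DOX/E14, and at 6.76 in noDox and 7.25 RPKM in NLS. The log2 folds were 0.50 (SE 0.29) and 0.10 (SE 0.36), the latter smaller than its error.

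The GLI genes differed in opposite directions in DOX/E14. Gli1, a transcriptional activator and a target of the pathway (chromosome 10, 127329882 to 127341579), stood at 17.2 RPKM in noDox and 8.85 in DOX/E14, and at 17.6 in noDox and 16.6 RPKM in NLS. Its log2 folds were −0.96 (SE 0.29) and −0.09 (SE 0.33). Gli3, the main source of GLI repressor in mouse embryos (chromosome 13, 15463723 to 15730026), stood at 3.91 RPKM in noDox and 11.6 in DOX/E14, and at 4.02 in noDox and 5.36 RPKM in NLS. Its log2 folds were 1.57 (SE 0.28) and 0.42 (SE 0.35). Gli2, the main activator in mouse embryos (chromosome 1, 118834061 to 119054405), stood at 6.41 RPKM in noDox and 8.56 in DOX/E14, and at 6.58 in noDox and 6.78 RPKM in NLS, with log2 folds of 0.42 (SE 0.28) and 0.04 (SE 0.34). The summed GLI level moved little, from 27.5 RPKM in noDox to 29.0 in DOX/E14, and from 28.2 to 28.7 RPKM in the NLS table. Its make-up differed, with a ratio of Gli3 to Gli1 of 0.228 in noDox, 1.32 for DOX/E14 and 0.324 for NLS.

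Some loci are shared with other genes. Gli1 overlaps Arhgap9, on the opposite strand, by 66 bases in RefSeq, and the tables give both the same locus. Arhgap9 had 2.84 RPKM in noDox, 0.873 for DOX/E14 and 1.45 for NLS. Short microRNA genes lie within Gli2 (Mir6346, listed at 0, 146 and 511 RPKM) and Boc (Mir3081, listed at 0 in every group). How strand and overlaps were counted is not given in the sources used here, so reads of such genes are uncertain.

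**Figure D2:**
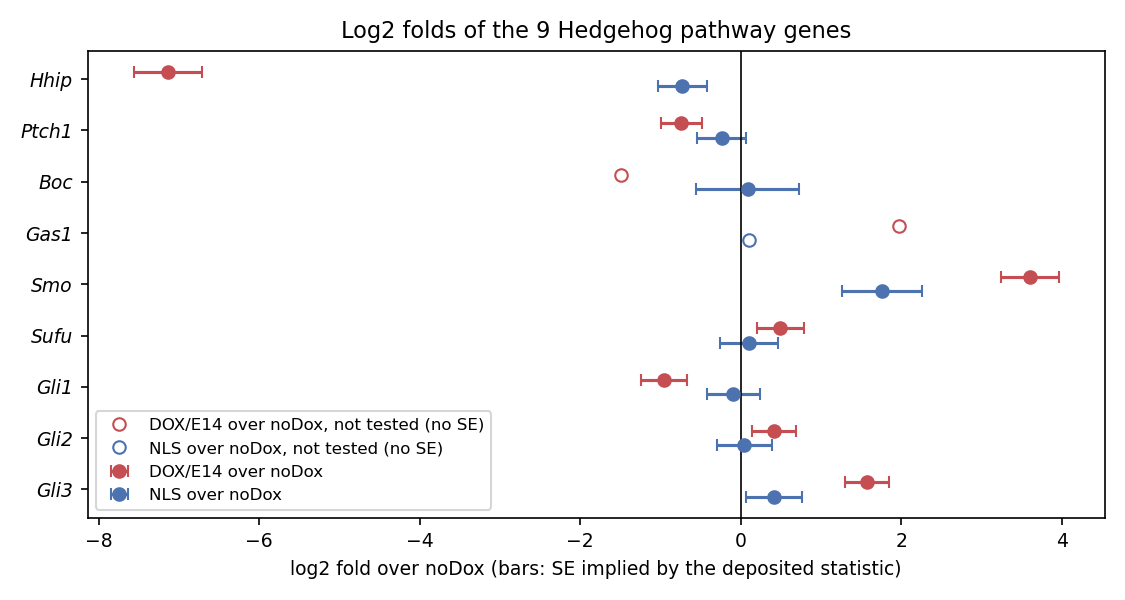
Log2 fold over noDox of the 9 genes in the DOX/E14 and NLS tables, with bars for the SE that the deposited statistic implies and open symbols where the authors made no test. Hhip lies at −7.14 and −0.73 and Smo at 3.60 and 1.77.

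The order of the levels also differed between noDox and DOX/E14, where neighbours are called ordered only if their gap exceeds the errors of their folds. These errors belong to folds between groups and are only a rough guide to gaps between genes. By value in noDox it ran Hhip, Ptch1, Gli1, Sufu, Gli2, Gli3, Smo, Boc and Gas1. Sufu and Gli2, at 6.59 and 6.41 RPKM, could not be ordered there, nor could Smo and Boc at 1.55 and 1.02 RPKM. Gas1 was not tested and has no error, so its place in every group is by value alone. In NLS, Hhip and Ptch1 at 29.0 and 26.9 RPKM could not be ordered, nor could Sufu, Gli2, Smo and Gli3 at 7.25, 6.78, 5.41 and 5.36 RPKM, with Gli1 between these sets at 16.6 RPKM and Boc and Gas1 below them. In DOX/E14 the order by value ran Smo, Ptch1, Gli3, Sufu, Gli1, Gli2, Gas1, Boc and Hhip. Smo and Ptch1 at 18.9 and 18.5 RPKM could not be ordered there, nor could Gli3 and Sufu at 11.6 and 9.30 RPKM. The same held for Sufu, Gli1 and Gli2 at 9.30, 8.85 and 8.56 RPKM. Gas1 and Boc have no error in DOX/E14, so their places are by value alone. Boc and Hhip, at 0.361 and 0.332 RPKM there, could not be ordered either. The summed level of the 9 genes was 114 RPKM in noDox and 77.2 in DOX/E14, and 117 in noDox and 98.6 RPKM in NLS. Both tables were scaled separately by the authors, and noDox came out 1.03 times higher in that for NLS (median over genes with at least 1 RPKM).

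Of 12382 genes tested for DOX/E14, 55.5% had q below 0.05 in the authors' deposited table, 27.2% higher and 28.3% lower than noDox. Of the 7 tested members 3 were called higher (Smo, Gli3 and Sufu) and 3 lower (Hhip, Gli1 and Ptch1), and Gli2 was not called. At q below 0.01 the count was 5, without Sufu (q = 0.0283 in the authors' deposited table). For NLS 8.36% of 12936 tested genes were called, 3.97% higher and 4.39% lower, and of the 8 tested members Smo was called higher and Hhip lower. Nothing is read from these member counts, because the choice of the genes used the same values. The median log2 fold of the tested members was 0.42 in DOX/E14 and 0.07 in NLS, beside 0.01 and −0.01 over all tested genes. Both tables use the noDox libraries, so the folds over noDox are not independent of each other. Whether the NLS folds differ from the DOX/E14 folds was not tested.

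**Figure D3:**
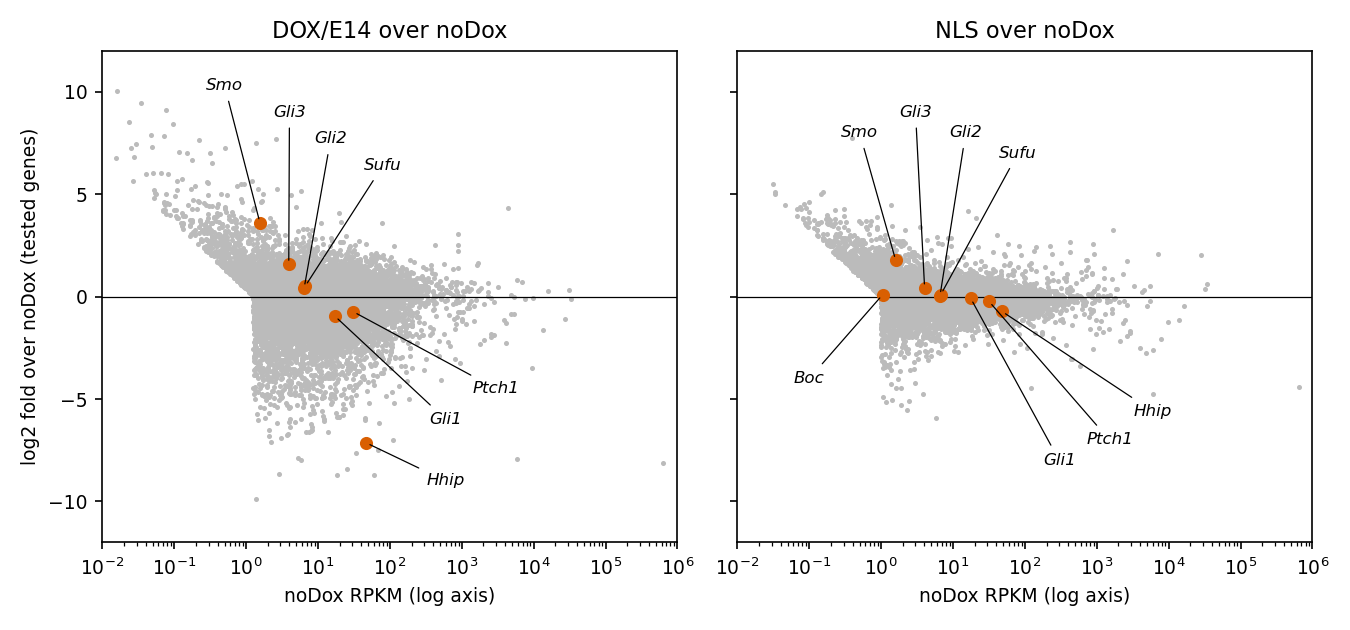
Log2 fold over noDox against the noDox RPKM (log axis) of all tested genes with finite folds (grey) and of the tested Hedgehog pathway genes (orange), in the DOX/E14 table (left) and the NLS table (right). Hhip lies at the lower edge of the cloud on the left, at −7.14, and within it on the right, at −0.73.

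Because the study compares cells with and without Argonaute, the 3′ UTRs of the 9 transcripts were searched for bases that pair with microRNA seeds (bases 2 to 8 of the microRNA). The following 7 mature mouse microRNAs (RefSeq, GRCm38.p6) are shown with the seed in capitals. The first 3 stand for families abundant in embryonic stem cells, let-7 is a family of differentiated cells, and the last 3 are reported to repress Smo or Gli1 in human cerebellar tumour cells.
miR-294-3p: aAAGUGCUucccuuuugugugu
miR-302b-3p: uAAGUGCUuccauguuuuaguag
miR-17-5p: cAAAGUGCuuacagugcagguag
let-7a-5p: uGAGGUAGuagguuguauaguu
miR-125b-5p: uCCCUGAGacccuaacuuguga
miR-324-5p: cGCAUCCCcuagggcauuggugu
miR-326-3p: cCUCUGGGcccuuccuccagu
The first 2 share a seed, so 6 different sites were searched on the transcript strand: AGCACTT for miR-294-3p and miR-302b-3p, GCACTTT for miR-17-5p, CTACCTC for let-7a-5p, CTCAGGG for miR-125b-5p, GGGATGC for miR-324-5p and CCCAGAG for miR-326-3p. The first 2 of these sites can overlap in 6 bases.

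The longest annotated 3′ UTR of each gene was used (GENCODE M21, GRCm38), from 165 bases in Gli1 to 6480 bases in Hhip. The 6480 bases of Hhip held 1 match, to the CTCAGGG of miR-125b-5p, and none to the other 5 sites. Among 345 genes with a 3′ UTR at least that long, 54.2% held AGCACTT and 40.0% held CTCAGGG in the same length. Smo, with 1080 bases, held 1 site, CCCAGAG, which 14.5% of 9656 genes held in that length. The sites of these 2 genes are printed with their surroundings, the match in capitals, the Hhip window at chr8:79969110-79969136 on the minus strand and the Smo window at chr6:29760586-29760612 on the plus strand.
Hhip, miR-125b-5p site: tatacagcaaatctaCTCAGGGtgaga
Smo, miR-326-3p site: acagggatgatggtaCCCAGAGtgggc
Sufu was the 1 member of 9 with the AGCACTT site of miR-294-3p and miR-302b-3p, at chr19:46487329-46487355 on the plus strand, and is shown for that reason; 29.5% of 3034 genes with a 3′ UTR at least as long held this site in the same length.
Sufu, miR-294-3p and miR-302b-3p site: ggtctaagctcacctAGCACTTagagg
In the 2860 bases of its 3′ UTR Sufu also held 3 sites of miR-125b-5p, a site that 23.9% of those genes held at least once, and 1 of miR-326-3p. The miR-326-3p site was in 5 of the 9 genes, Ptch1, Smo, Sufu, Gli2 and Gli3, once in each. Among 3′ UTRs at least as long, 32.4% held it in the length of Ptch1, 30.5% in that of Sufu, 21.1% in that of Gli2 and 32.3% in that of Gli3. No member held the site of miR-17-5p, let-7a-5p or miR-324-5p, and Gli1, Boc and Gas1 held none of the 6. A match is a stretch of letters and not a shown target, and a missing one says only that these letters are not in the annotated 3′ UTR.

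**Figure D4:**
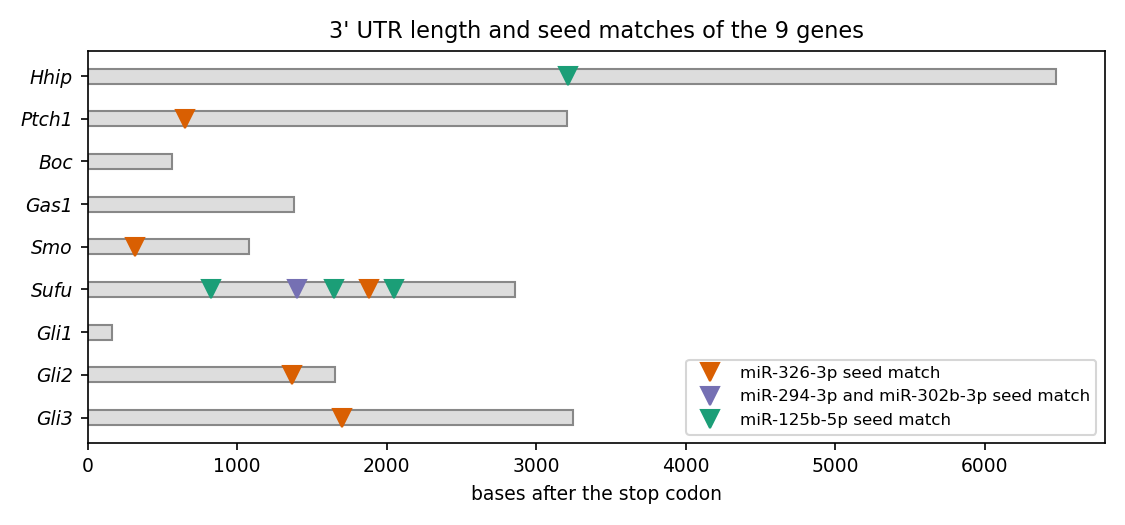
Length of the longest annotated 3′ UTR of each of the 9 genes (bars, bases after the stop codon) and the matches to microRNA seeds (triangles, coloured by microRNA). Hhip has the longest, 6480 bases with 1 match, and Sufu has 5 matches in 2860 bases.

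The rest of the pathway was described by 6 lists with 94 genes in the tables. The lists were chosen with earlier results of these data known, so the shares called, here and list by list below, are a description only. In DOX/E14, 75 of them were tested, of which 21 rose and 17 fell at q below 0.05 in the authors' deposited table. That is 50.7% called, beside 55.5% of all tested genes, and the median log2 fold was 0.05. In NLS, 8 rose and 2 fell of 76 tested, 13.2% beside 8.36%, with a median of 0.02. At q below 0.01 the NLS count was 5, and 18 of the 38 DOX/E14 calls had an absolute log2 fold of at least 1.

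Ligand RNA was listed under 1 RPKM in every group. Shh was listed at 0 RPKM in every group. Ihh had 0.0973 RPKM in noDox, 0.151 for DOX/E14 and 0.225 for NLS, and Dhh at 0.124, 0.125 and 0.748 RPKM, and none of the 3 ligand genes was tested. Of the 3 tested genes of ligand making and release, Hhat, the acyltransferase that adds palmitate to the ligands, fell from 3.25 to 0.616 RPKM in DOX/E14 (log2 fold −2.40, SE 0.56). Hhat stood at 1.94 RPKM in NLS, where 0 of the 3 were called at q below 0.05 in the authors' deposited table and 2, Hhat and Scube3, had an unadjusted p under 0.05 from Cuffdiff. Disp1, which releases ligand from its source cell, was at 4.11, 3.17 and 3.96 RPKM.

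Among other receptors and co-receptors 3 of 5 tested genes rose in DOX/E14 and 2 of 5 in NLS, and 0 fell in either. These are 60% and 40% called, beside 55.5% and 8.36% of all tested genes. Lrp2, an endocytic receptor that binds SHH in the mouse forebrain, rose from 23.7 to 42.4 RPKM in DOX/E14 (log2 fold 0.84, SE 0.27). In the NLS table it rose from 24.3 to 80.5 RPKM (log2 fold 1.73, SE 0.32). Cdon, a co-receptor closely related to Boc, had 5.01 RPKM in noDox, 5.52 for DOX/E14 and 6.34 for NLS and was called in neither. Gpc3, a glypican that competes with Patched for ligand in mouse, rose from 3.47 to 11.2 RPKM in DOX/E14 and from 3.56 to 9.88 RPKM in NLS.

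Regulators of Smoothened and GLI split in DOX/E14, with 5 rises and 4 falls among 18 tested genes. The share called was 50%, beside 55.5% of all tested genes. Evc and Evc2, partners that anchor active Smoothened at the base of the cilium, rose from 1.39 to 7.26 and from 1.67 to 7.23 RPKM, with log2 folds of 2.38 (SE 0.38) and 2.11 (SE 0.36). Arrb1, a β-arrestin that helps move Smoothened into the cilium, rose from 2.56 to 6.73 RPKM. Dlg5, a scaffold protein that binds Smoothened, fell from 27.4 to 9.90 RPKM (log2 fold −1.47, SE 0.26). In NLS 2 of the 18 rose and 0 fell, 11.1% called beside 8.36% of all tested genes. Evc2 rose from 1.71 to 3.76 RPKM (log2 fold 1.14, SE 0.49), and Rab23, a GTPase that restrains the pathway in mouse embryos, rose from 8.02 to 14.1 RPKM (log2 fold 0.81, SE 0.34). Rab23 was also called higher in DOX/E14, from 7.82 to 13.7 RPKM. Evc was at 1.74 RPKM in NLS and was not called.

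The kinases and the ubiquitin ligase that process GLI proteins had 3 rises and 3 falls among 13 tested genes in DOX/E14. The share called was 46.2%, beside 55.5% of all tested genes. Gsk3b, a GLI kinase, fell from 26.2 to 13.2 RPKM and Btrc, the β-TrCP substrate receptor of the ligase, from 8.48 to 4.62 RPKM. Skp1a and Cul1, core subunits of the same ligase, rose from 118 to 220 RPKM (log2 fold 0.90, SE 0.26) and from 39.8 to 71.8 RPKM. In NLS 0 of the 13 were called at q below 0.05 in the authors' deposited table, and 2, Prkacb and Gsk3b, had an unadjusted p under 0.05 from Cuffdiff.

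Cilium genes had 4 rises and 6 falls among 24 tested in DOX/E14, a share of 41.7% beside 55.5% of all tested genes. B9d1, a protein of the cilium's transition zone, rose from 15.7 to 40.4 RPKM (log2 fold 1.36, SE 0.35), and Ift27, an intraflagellar transport subunit, from 4.64 to 10.4 RPKM. Ift140, a subunit of the retrograde transport complex, fell from 9.05 to 4.19 RPKM, and Kif3a, a motor subunit needed to build cilia, from 4.94 to 2.61 RPKM. In NLS 1 of the 24 rose and 1 fell, 8.33% called beside 8.36% of all tested genes. Dync2h1, the retrograde motor, rose from 2.24 to 3.83 RPKM (log2 fold 0.77, SE 0.35) and Ift57 fell from 7.63 to 3.82 RPKM. Ift57 was also called lower in DOX/E14, from 7.43 to 4.41 RPKM, whereas Dync2h1 was not called there.

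Genes reported elsewhere as Hedgehog targets did not move one way. Of 12 tested in DOX/E14 6 rose and 3 fell, 75% called beside 55.5% of all tested genes. Of 13 tested in NLS 3 rose and 1 fell, 30.8% called beside 8.36%. Sfrp1, a secreted Wnt antagonist, fell from 67.1 to 4.59 RPKM in DOX/E14 (log2 fold −3.87, SE 0.29) and from 68.9 to 30.9 RPKM in NLS (log2 fold −1.16, SE 0.30). Snai1, a repressor of epithelial genes, fell from 7.21 to 1.27 RPKM in DOX/E14, and Bmp4, a secreted signalling protein, rose from 1.27 to 6.30 RPKM there. Jag2, a Notch ligand, rose from 3.58 to 16.3 RPKM in DOX/E14 (log2 fold 2.19, SE 0.31) and from 3.67 to 9.07 RPKM in NLS (log2 fold 1.31, SE 0.40). In NLS Nkx2-9, a homeobox gene of the ventral neural tube, rose from 0.729 to 9.36 RPKM (log2 fold 3.68, SE 1.03). Nkx2-9 was not called in DOX/E14, with 0.711 RPKM in noDox and 1.53 in DOX/E14. Ccnd2, a cyclin, rose in NLS from 2.08 to 7.37 RPKM and was also called higher in DOX/E14, from 2.03 to 4.01 RPKM. Several targets used as markers of ligand response in tissues were low. Foxf1, Foxf2, Foxl1, Foxc2, Foxa2, Nkx2-1, Nkx6-1 and Olig2 were untested in both tables, and Osr1 was listed at 0 in every group. Nkx2-2 and Nkx6-2, untested in DOX/E14, had 0.0905 and 0.298 RPKM in noDox in the NLS table. In NLS they were at 1.02 and 1.30 RPKM and were tested but not called.

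**Figure D5:**
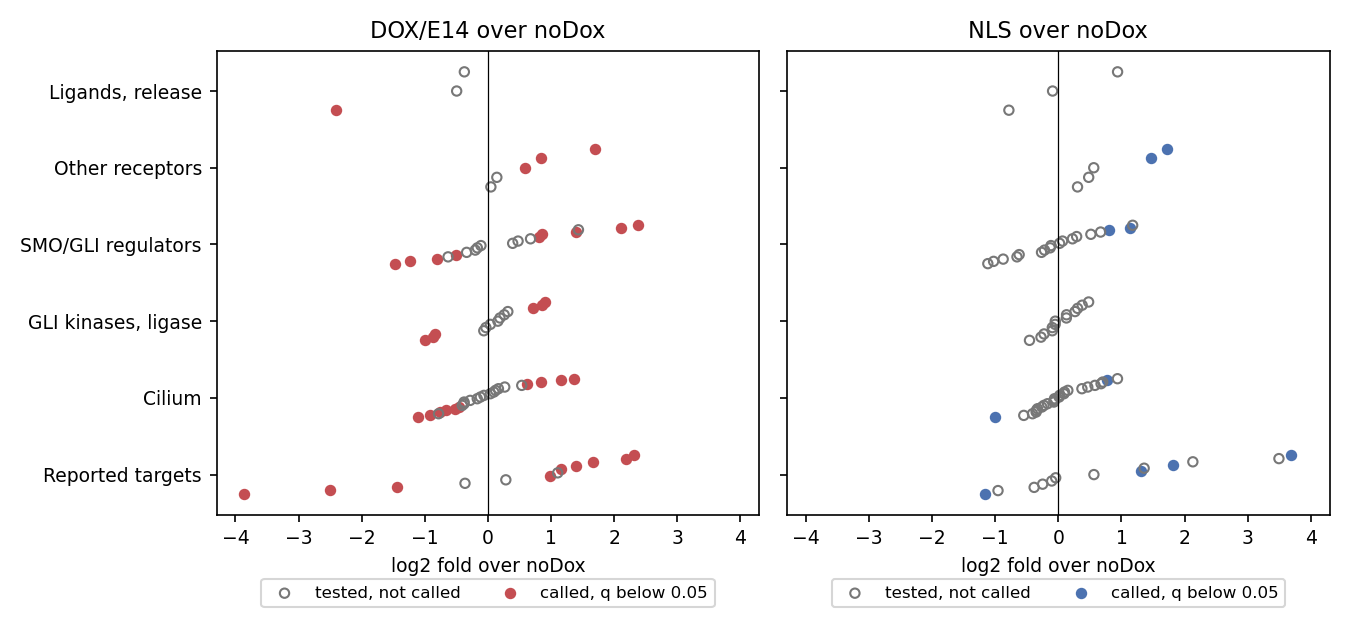
Log2 fold over noDox of each tested gene of the 6 pathway lists in the DOX/E14 table (left) and the NLS table (right), with filled symbols for genes called at q below 0.05 in the authors' deposited table. In DOX/E14 21 genes rose and 17 fell of 75 tested, and in NLS 8 rose and 2 fell of 76.

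Over the 3 groups, the genes whose pair of log2 folds lay nearest to that of Hhip were sought among 11885 other genes with at least 1 RPKM in noDox and reads in every group. The nearest was Msln, a cell-surface protein of mesothelium, with 111 RPKM in noDox, 0.861 for DOX/E14 and 74.2 for NLS, at a distance of 0.18 log2 units. Fgf23, a secreted growth factor, and Ddr2, a collagen receptor, followed at 0.42 and 0.43, with noDox levels of 3.67 and 3.86 RPKM. Their DOX/E14 levels were 0.0342 and 0.0365 RPKM, with SEs of the log2 fold of 2.05 and 1.08. Hymai, a noncoding transcript, lay at 0.61, with 0.0255 RPKM for DOX/E14 (SE 2.20). Each of these distances, that of Msln included (SE 0.51), is smaller than the SE of the gene's DOX/E14 fold. Of these named genes Msln and Ddr2 were called in DOX/E14 at q below 0.05 in the authors' deposited table, and Msln alone in NLS.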

How the data were processed

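The submitters' processing notes name the tools bcl2fastq (2.17.1), TopHat and Cuffdiff and, as genome, mm10. The annotation, the use of strand and the versions of TopHat and Cuffdiff are not given in the sources used here. The RPKM values are 1 per group and table, per the file headers, pooled over 2 libraries by the authors. The test statistic (a signed score) and the p-value and q-value of each gene are also those of the deposited tables. The log2 fold column of the deposited tables was not used. Spreadsheet error cells in the statistic were read as minus infinity.

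Log2 folds were computed from RPKM with no pseudocount (Python 3.11.15, pandas 2.3.3). The SE of a log2 fold is its absolute value divided by the absolute statistic. The p-values imply a z 1.41 (DOX/E14) and 1.42 (NLS) times the statistic (medians), so the SE printed here usually exceeds that behind the deposited p. A gene is called at q below 0.05 in the authors' deposited table. With pooled values no model was refitted, and p-values measure only the spread between libraries whose origin from separate cultures is not stated. Differences between NLS and DOX/E14 were not tested. Adjustment, SE and site search were tested on simulated data.

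The 9 genes and the lists were chosen with earlier results of these data known. The lists were ligands and release, other receptors, Smoothened and GLI regulators, GLI kinases and ligase, cilium, and reported targets; 94 of 96 symbols were found, the other 2 being second names of listed genes. From each list and table, up to 4 called genes with the largest absolute fold and at least 1 RPKM in a group were named, plus the 3 ligands, and the 5 genes nearest to Hhip by Euclidean distance over both log2 folds; some items that this rule or the lists hold are not reported here. Cdon, Disp1, Scube3, Prkacb, Nkx2-2, Nkx6-2, the untested targets and the single markers were named after their values were seen. In list medians, a gene at 0 in 1 group counts beyond every finite fold. Gene positions and start regions are from RefSeq (GRCm38.p6, the same assembly as mm10), where start regions of 7 of the 9 genes matched, and 3′ UTRs of 20592 genes with at least 50 bases are from GENCODE M21. The alternatives were q below 0.01, a fold minimum (absolute log2 fold of 1), adjustment over expressed genes, pseudocounts and centring.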

Additional observations from a re-analysis of the deposited data

How the results depend on the processing

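Of the 12 alternative counts of called genes, 7 stayed within 1.5 times the reported count. When a call also needed an at least 2-fold difference (absolute log2 fold of 1), the DOX/E14 count fell from 38 to 18 for the listed pathway genes and from 6 to 3 for the members (Smo, Gli3 and Hhip), and the NLS count of members from 2 to 1 (Smo). At q below 0.01 the NLS counts were 5 of 10 for the pathway genes and 1 of 2 for the members (Smo). These stricter rules drop genes by construction. A pseudocount of 1 RPKM moved the Hhip log2 fold in DOX/E14 from −7.14 to −5.16, since it is large beside 0.332 RPKM. None of the 54 recomputed member folds (pseudocounts of 0.1 and 1 RPKM, centring on the median) changed sign, and 43 moved by less than their SE. Of the others, 9 were folds of Boc and Gas1 that have no SE, and the last besides Hhip was Smo in DOX/E14, from 3.60 to 2.96 with a pseudocount of 1 RPKM. Sufu in DOX/E14 lost its call at q below 0.01. No paired analysis was possible because the tables hold 1 pooled value per group, and for the same reason no library could be left out. Depth is unknown, so values under 1 RPKM, among them Hhip in DOX/E14, Gas1 and the ligands, have no counting interval.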

Other observations

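Within 500 kb of Hhip 3 genes were tested, namely Otud4, Abce1 and Anapc10. In DOX/E14 Abce1, a ribosome recycling factor, rose from 113 to 164 RPKM (log2 fold 0.53, SE 0.27), and Anapc10, a subunit of the anaphase-promoting complex, fell from 13.8 to 6.96 RPKM (log2 fold −0.99, SE 0.31). Otud4, a deubiquitinase, was at 71.0 RPKM in noDox and 77.4 in DOX/E14 and was not called. In NLS Anapc10 fell from 14.2 to 7.46 RPKM (log2 fold −0.93, SE 0.38), and the other 2 tested neighbours were not called. Anapc10 was thus as low in NLS as in DOX/E14, which Hhip was not, although that difference was not tested.

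Within 500 kb of Smo, 23 other genes are listed. In DOX/E14 12 of them were tested, of which 3 rose and 4 fell. In NLS 16 were tested, of which 1 rose and 1 fell. Over all tested genes 55.5% were called in DOX/E14 and 8.36% in NLS. The rise in NLS was that of Flnc, a filamin that crosslinks actin in muscle, which went from 1.68 to 10.2 RPKM there (log2 fold 2.60, SE 0.38) and from 1.64 to 41.0 RPKM in DOX/E14 (log2 fold 4.64, SE 0.30). The nearest genes on either side of Smo were Tspan33, a tetraspanin, which rose from 0.830 to 2.13 RPKM in DOX/E14, and Ahcyl2, which fell from 11.4 to 8.04 RPKM there. These neighbours were looked up after the values of Hhip and Smo were known.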
